A study of Arabidopsis thaliana with 32 samples.

Results

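AT1G72540 codes for a member of the receptor-like kinases, and its expression was followed across roots of *Arabidopsis thaliana* Columbia-0 plants given 4 different osmotic solutes. It was found as the probe set that names AT1G72540 and no other gene in the array annotation. There was 1 such probe set, so AT1G72540 is 1 of the 28285 genes tested. Of these, 16554 were named genes and 11731 were probe sets without the name of a single gene, each counted here as a gene. The gene was chosen because earlier results on these arrays had shown it high under polyethylene glycol 8000 (PEG). Its values under PEG, and those of PEG against the control or another solute, are therefore a description and carry no test.

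The roots came from 16-day-old wild-type plants in hydroponic solution and were collected 15 min after transfer. Treated plants went into hydroponic solution holding PEG at 75, 100, 125 or 150 mM, NaCl at 25, 50, 75 or 100 mM, sorbitol at 50, 100 or 150 mM, or ethylene glycol at doses of 50, 100, 150 and 200 mM, and control plants into the same solution without added solute. Each of these 16 groups had 2 arrays. The study concerned early transcriptional responses to turgor and to osmotic potential. The doses are those of the labels. Molar doses this high are hard to reach with so large a polymer as PEG, so the true scale of the PEG dose axis is not known, and doses of PEG and another solute that are equal by label need not be equal in strength.

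Receptor-like kinases carry signals from the plant cell surface to the inside by phosphorylating other proteins. Many have an extracellular domain that senses a ligand or the state of the wall, while the receptor-like cytoplasmic kinases lack such a domain and work beneath the receptors, BIK1 and PBS1 being well-studied examples from immune signalling. PEG and sorbitol draw water out of root cells. NaCl adds ions as well, whereas ethylene glycol crosses membranes readily, so that its effect on turgor is short-lived.

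The arrays fell into 2 runs of title numbers, 17 to 32 and 33 to 48, each with 1 array of every group, called here the first and the second series. Across all genes 62.8% differed between the series (limma), so every value is given by series, and the series was a block in the fits. The labels do not tell whether a group's 2 arrays had separate plants or cultures behind them, so the spread that enters the p-values may be technical. The array of PEG 150 mM in the second series had the narrowest spread of values over genes, an SD of 2.01 log2 units against 2.22 at the other extreme, and the PEG results that use it are also given without it. Of the marker lists, 1 of 6 root genes and 1 of 5 green shoot genes had a probe set of their own. EXPA7, an expansin of root hairs, lay between 6.57 and 8.08 log2 units on the 32 arrays, and RCA, the Rubisco activase of green tissue, between 2.81 and 4.0. These 2 markers are too few to check the labelled tissue further. Fewer cells of a type and less RNA per cell cannot be told apart in such whole-root samples.

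Under PEG the level of AT1G72540 was high on all 8 arrays. In the first series it was 5.99, 6.40, 6.31 and 6.59 log2 units at PEG 75, 100, 125 and 150 mM, against 4.89 in the control. In the second series it was 5.55, 5.96, 6.30 and 5.73 log2 units at the same doses, against 3.62 in the control. This second control value was low, below the median of its array (4.17) and at percentile 42.9 of the genes on it. In the first control AT1G72540 was at percentile 59.1. Every PEG array stood above both control arrays. The lowest by level, PEG 75 mM in the second series, exceeded the low control of its own series by 1.93 log2 units. The smallest such margin was 1.1, for PEG 75 mM in the first series. Averaged over doses, AT1G72540 was at 6.10 log2 units in PEG-treated roots and at 4.26 in control roots, a difference of 1.85 (SE 0.21, 8 arrays against 2) or 3.60-fold. Without the PEG 150 mM array of the second series this difference was also 1.85, and it was 2.09 without the control of the first series and 1.61 without the control of the second.

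**Figure D1:**
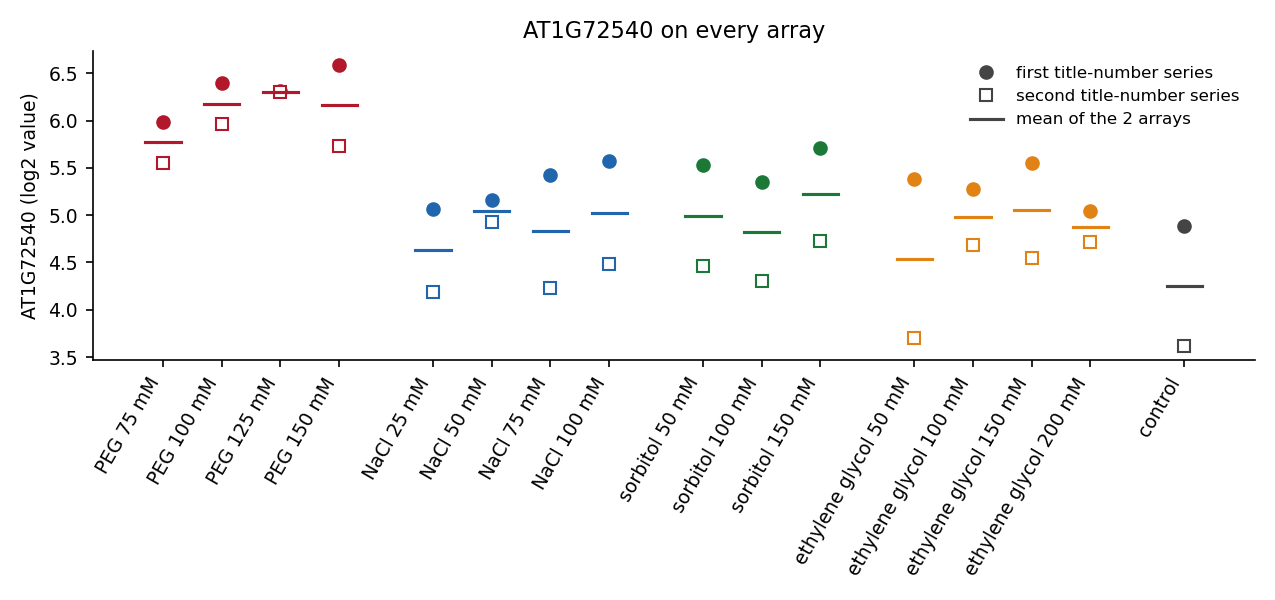
Level of AT1G72540 in log2 units on each of the 32 arrays, by group, with filled circles for the first series, open squares for the second and lines for the mean of the 2 arrays. The PEG arrays lie between 5.55 and 6.59, the arrays of the other solutes between 3.70 and 5.71, and the control arrays at 4.89 and 3.62.

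PEG stood above the control at each of its doses, and the highest dose did not give the highest mean. The difference in log2 level from the control was 1.52 at PEG 75 mM, 1.93 at 100 mM, 2.05 at 125 mM and 1.91 at 150 mM (SE 0.26 each, 2 arrays against 2). Over the PEG doses alone, leaving out the control, the slope was 0.52 log2 units per 100 mM with an SE of 0.33. Without the 150 mM array of the second series the difference at 150 mM was 1.93 and the slope 0.54 (SE 0.41). The series differed in the shape. In the first the highest PEG array was that at 150 mM, 1.70 above its control, and in the second it was that at 125 mM, 2.68 above its control.

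The size of the PEG difference also differed between the series, each with 1 control array, and whether it depends on the series was not tested. The mean of the 4 PEG arrays exceeded the control of the first series by 1.43 log2 units and that of the second by 2.27. The control arrays differed by more than the PEG arrays did: the control was 1.27 lower in the second series than in the first, while for PEG the second series was lower by 0.44 at 75 mM, 0.44 at 100 mM, 0.01 at 125 mM and 0.86 at 150 mM. Ranked over all 28285 genes, AT1G72540 had the 5th largest PEG difference from the control in the first series and the 2nd largest in the second. In the average it ranked 2nd, after AT1G48720, a gene named here after its values were seen, whose own difference was 2.06 log2 units (1.22 and 2.90 in the 2 series).

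**Figure D2:**
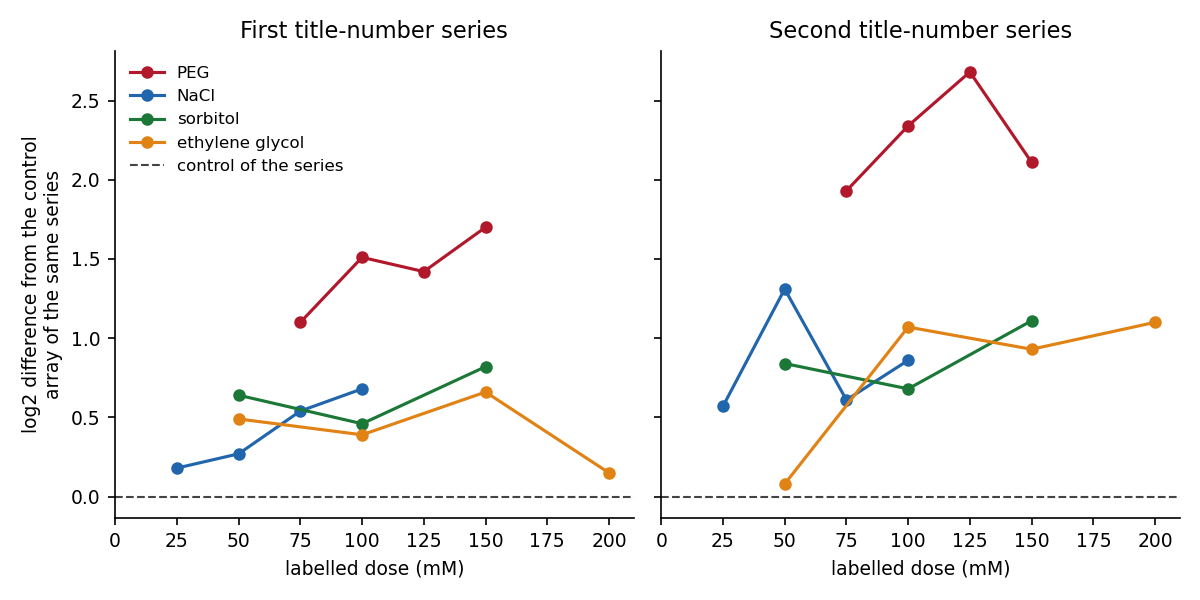
Difference in log2 level of AT1G72540 from the control array of the same series (vertical axis) against the labelled dose in mM (horizontal axis), with 1 point an array. PEG runs from 1.1 to 1.70 in the first series and from 1.93 to 2.68 in the second, in each series above every array of NaCl, sorbitol and ethylene glycol of that series.

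PEG arrays did not overlap with any other array of their series. In the first series the lowest PEG array was at 5.99 and the highest of the 11 NaCl, sorbitol and ethylene glycol arrays, sorbitol 150 mM, was at 5.71 log2 units. In the second series the lowest PEG array was at 5.55 and the highest array of the other solutes, NaCl 50 mM, was at 4.93. This separation in both series was seen in 6 genes, 0.0212% of those tested, and AT1G72540 was chosen for being high under PEG. By the smaller of its gaps, 0.28 log2 units, it came 4th among all genes. The gaps of probe sets 13448869 and 13479278, which have no gene name here and are given after their values were seen, were at least 1.09 and 0.58, and that of AT1G80450 was at least 0.41.

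At equal labelled doses PEG exceeded each of the other solutes. At 75 mM AT1G72540 was at 5.77 log2 units under PEG and at 4.83 under NaCl. At 100 mM it was at 6.18 under PEG, 5.03 under NaCl, 4.83 under sorbitol and 4.99 under ethylene glycol. At 150 mM it was at 6.16 under PEG, 5.22 under sorbitol and 5.05 under ethylene glycol. The difference of PEG from another solute thus ran from 0.94, for NaCl at 75 mM and sorbitol at 150 mM, to 1.36 for sorbitol at 100 mM (SE 0.26 each). Without the PEG 150 mM array of the second series, PEG exceeded sorbitol by 0.96 and ethylene glycol by 1.13 at 150 mM (SE 0.33 each).

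The other solutes gave levels between those of PEG and the control. Under NaCl, AT1G72540 was at 5.07, 5.16, 5.43 and 5.57 log2 units at 25, 50, 75 and 100 mM in the first series, and at 4.19, 4.93, 4.23 and 4.48 in the second, against 4.89 and 3.62 in the controls. These values were higher at each higher dose in the first series and highest at 50 mM in the second. Under sorbitol it was at 5.53, 5.35 and 5.71 at 50, 100 and 150 mM in the first series and at 4.46, 4.30 and 4.73 in the second. Under ethylene glycol it was at 5.38, 5.28, 5.55 and 5.04 at 50, 100, 150 and 200 mM in the first series and at 3.70, 4.69, 4.55 and 4.72 in the second. All 22 arrays of these solutes lay above the control of their series, by 0.08 (ethylene glycol 50 mM, second series) to 1.31 log2 units (NaCl 50 mM, second series), as was the case for 0.894% of all genes. All 22 comparisons share the 2 control arrays, which were also in the contrast that chose the gene, so a low control value would move them together.

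None of these averages passed the test over all genes. The sorbitol average was 5.01 log2 units, against 4.26 in the control, a difference of 0.76 (SE 0.21, 95% interval 0.32 to 1.20, limma adjusted p = 0.213, 6 arrays against 2). The background was 0.138% of genes called. For NaCl the average was 4.88, against 4.26 in the control, a difference of 0.63 (SE 0.21, 95% interval 0.20 to 1.05, limma adjusted p = 0.315, 8 arrays against 2), with 0.209% of genes called. For ethylene glycol the average was 4.86, against 4.26 in the control, a difference of 0.61 (SE 0.21, 95% interval 0.18 to 1.03, limma adjusted p = 0.919, 8 arrays against 2), with 0.00707% of genes called. The single-gene intervals rest on the second control array and on the block. Without the control of the second series they included 0, with differences of 0.52 for sorbitol (-0.066 to 1.1), 0.39 for NaCl (-0.19 to 0.96) and 0.37 for ethylene glycol (-0.21 to 0.94). With no block for the series they also included 0, running from -0.27 to 1.78, from -0.37 to 1.62 and from -0.38 to 1.60 for the same solutes. In a fit of sorbitol and control arrays alone the sorbitol difference passed (limma adjusted p = 0.0318).

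By series, the mean difference from the control was 0.64 log2 units for sorbitol, 0.42 for NaCl and 0.42 for ethylene glycol in the first series, and 0.88, 0.84 and 0.80 in the second. At single doses limma called AT1G72540 at 0 of 11 doses of these solutes. At 9 of them it had an unadjusted p under 0.05. Of all 28285 genes, between 857 (ethylene glycol 50 mM) and 2507 (sorbitol 150 mM) had an unadjusted p under 0.05 at a dose. The differences of AT1G72540 ran from 0.29 at ethylene glycol 50 mM to 0.97 at sorbitol 150 mM, all above 0, with adjusted p from 0.138 to 0.998. All 11 comparisons share the same control arrays, which also entered the contrast that chose the gene. The 9 doses are therefore not separate pieces of evidence. The share of all genes called was 0.00707%, 0.0247%, 0.131% and 0.587% at the NaCl doses from low to high, 0.00354%, 0.0283% and 0.46% at those of sorbitol, and 0.00354%, 0%, 0.00354% and 0.134% at those of ethylene glycol.

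Dose within NaCl, sorbitol or ethylene glycol was tested by slopes in which the control and PEG arrays had no weight. These slopes are independent of the contrast that chose the gene, apart from the spread, which was estimated from all arrays. AT1G72540 had slopes of 0.39 log2 units per 100 mM of NaCl (SE 0.33, limma adjusted p = 0.944), 0.23 of sorbitol (SE 0.26, adjusted p = 0.984) and 0.22 of ethylene glycol (SE 0.17, adjusted p = 0.999). No slope passed, and the 95% intervals ran from -0.29 to 1.07 for NaCl, from -0.31 to 0.76 for sorbitol and from -0.12 to 0.56 for ethylene glycol. Of all genes 0.594%, 0.148% and 0.163% had a called slope with NaCl, sorbitol and ethylene glycol.

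The same independence, again apart from the shared spread, holds for the comparisons among the 3 other solutes at their shared doses. NaCl and sorbitol averaged 5.04 and 4.91 log2 units at 50 and 100 mM, a difference of 0.13 (SE 0.19, 95% interval -0.26 to 0.51, limma adjusted p = 0.958, 4 arrays against 4). NaCl and ethylene glycol averaged 5.04 and 4.76 at these doses, a difference of 0.27 (SE 0.19, 95% interval -0.11 to 0.65, limma adjusted p = 0.605, 4 arrays against 4). Sorbitol and ethylene glycol averaged 5.01 and 4.86 at 50, 100 and 150 mM, a difference of 0.16 (SE 0.15, 95% interval -0.16 to 0.47, limma adjusted p = 0.63, 6 arrays against 6). No difference was detectable in any of the 3 pairs, and the upper limits of the intervals were 0.51, 0.65 and 0.47 log2 units. The share of genes called was 0.244%, 0.445% and 0.315%.

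Placed in order, the 16 group means ran from 6.31 log2 units at PEG 125 mM to 4.26 in the control. The 4 PEG groups took the first 4 places (125, 100, 150 and 75 mM), and sorbitol 150 mM followed at 5.22. Of the 15 steps between neighbours in this order, that from PEG 75 mM to sorbitol 150 mM was the largest at 0.55, a description like the other PEG values. From sorbitol 150 mM down to the control no neighbour differed by more than 0.29, and NaCl, sorbitol and ethylene glycol groups alternated. Steps between neighbours in a sorted order are small by construction, so they do not tell whether groups differ. Sorbitol 150 mM stood 0.97 above the control, where the 95% half-width of a difference between 2 groups was 0.54, though it did not pass over all genes.

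The level of AT1G72540 was lower in the second series than in the first. The mean was 4.76 log2 units in the second series and 5.58 in the first, a difference of -0.82 (SE 0.09, limma adjusted p = 1.38e-08, 16 arrays against 16, lower in 16 of 16 groups), beside 62.8% of genes called. The difference between the 2 arrays of a group ran from -0.86 to -0.01 in the 4 PEG groups and from -1.68 to -0.23 in the other 12. With the series removed, the residual SD of AT1G72540 was 0.313 log2 units, against a median of 0.190 over all genes, so its values scattered more than those of most genes.

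Other genes were ranked by how closely they followed AT1G72540 over the 32 arrays, after the mean of each series had been subtracted. The PEG arrays were among these, so the ranking favours genes high under PEG. The PEG values of the genes it picked are therefore a description and no separate evidence. AT1G80450 was the nearest of 16553 named genes, with a Pearson correlation of 0.816. In the first series it was between 4.68 and 5.0 log2 units on the 4 PEG arrays, between 3.71 and 4.22 on those of the other solutes and at 3.88 in the control. In the second series it was between 5.16 and 5.54 under PEG, between 4.02 and 4.75 under the other solutes and at 4.47 in the control. AT1G80450 was thus also free of overlap between PEG and the other arrays, and under the other solutes it stayed near the control, with differences of 0.10 for NaCl, -0.01 for sorbitol and -0.16 for ethylene glycol.

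The other 7 genes correlated with AT1G72540 at 0.701 to 0.769. They were PRA1.B5, of the prenylated RAB acceptor family of membrane trafficking, AT2G40095, AT5G13200, AT5G35580, the ARGOS-like gene ARL, a regulator of organ size, AT2G16900 and AT1G70420. Their PEG differences from the control lay between 0.50 and 0.72 log2 units, smaller than that of AT1G72540. Over the 24 arrays of the other groups, without PEG, the correlations of the 8 genes were lower, between 0.06 (AT1G80450) and 0.53 (AT2G40095). The points share their arrays and the same 2 controls, and the choice of measure matters, since 4 of the 8 remained among the nearest by Spearman's rho and 2 by the correlation of the 16 group means.

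**Figure D3:**
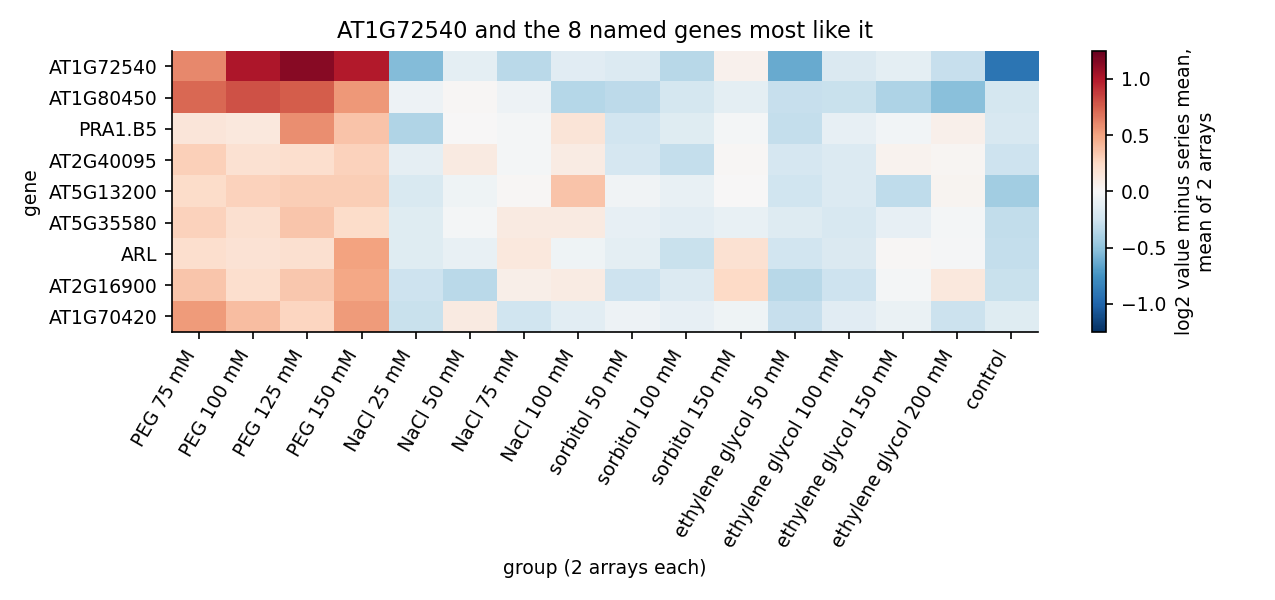
Colour gives the log2 value minus the mean of its series, averaged over the 2 arrays of a group, for AT1G72540 and the 8 named genes most like it (rows) in the 16 groups (columns). AT1G72540 runs from 1.14 at PEG 125 mM to -0.91 in the control, and AT1G80450 from 0.80 at PEG 100 mM to -0.53 at ethylene glycol 200 mM.

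Receptor-like cytoplasmic kinases of subfamily VII were looked at as a group to see whether PEG moved relatives of the gene. The list held 42 genes, 28 of them with a probe set of their own, and AT1G72540 was 1 of these. Of the other 27, 1 rose and 0 fell in the PEG average (limma), against 0.247% of all genes that rose and 0.173% that fell. At an unadjusted p under 0.05 there were 4 of the 27, beside 11.5% of all genes. Their median difference was 0.12 log2 units, against 0.00 for all genes, and the range was -0.52 to 0.57. In the NaCl, sorbitol and ethylene glycol averages 0 were called, with 4, 3 and 1 at an unadjusted p under 0.05 (limma), beside 8.81%, 9.67% and 4.49% of all genes. The median differences in these averages were 0.16, 0.08 and 0.13, so the median under PEG was not particular to PEG. All of these averages share the 2 control arrays.

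The kinase gene that rose was AT5G35580. It was also among the 8 most like AT1G72540, a ranking that used the same PEG arrays. In the first series it was between 8.07 and 8.19 log2 units on the PEG arrays and at 7.71 in the control, and in the second between 8.30 and 8.59 on the PEG arrays and at 7.70 in the control. All 8 PEG arrays lay above both controls. The average difference was 0.57 (SE 0.12, limma adjusted p = 0.0237, 8 arrays against 2), and the call was lost without the control of the first series (adjusted p = 0.0867) or of the second (0.555), and with no block for the series (adjusted p = 1). Without the PEG 150 mM array of the second series it was 0.58 (limma adjusted p = 0.0311). AT5G35580 was also above the control by 0.32 with NaCl, 0.20 with sorbitol and 0.19 with ethylene glycol, none of them called. Under PEG, BIK1, the kinase beneath the flagellin receptor, did not pass, with a difference of 0.35 (SE 0.11, limma adjusted p = 0.174). Nor did AT3G09830 at 0.36 (SE 0.16, adjusted p = 0.381) or AT3G07070 at -0.52 (SE 0.18, adjusted p = 0.246).

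**Figure D4:**
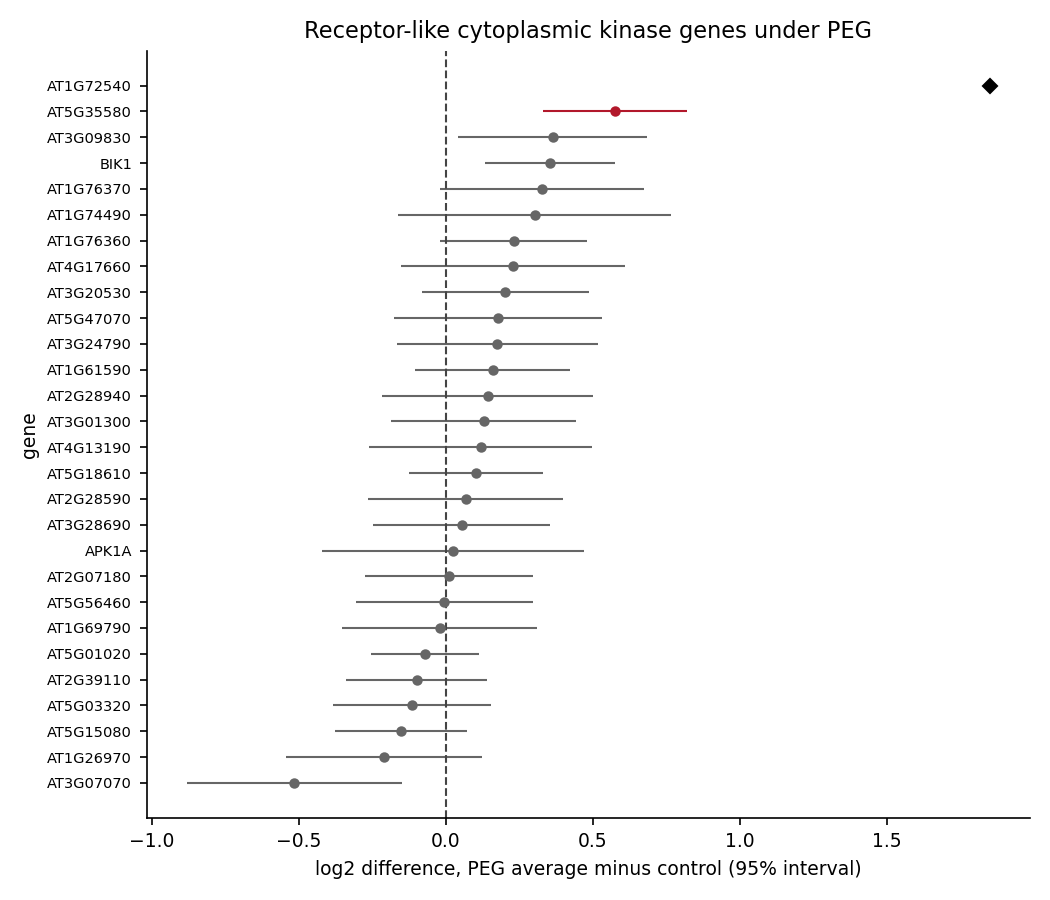
Log2 difference of the PEG average from the control for AT1G72540 (diamond, drawn without interval because the gene was chosen on this contrast) and 27 other receptor-like cytoplasmic kinase genes of subfamily VII (circles with 95% intervals, red where the limma adjusted p was under 0.05). AT1G72540 stands at 1.85, and the others run from 0.57 for AT5G35580 to -0.52 for AT3G07070.

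Few receptors and early response genes could be read, since 3 of 13 and 5 of 25 on these lists had a probe set of their own, and limma called 0 of them in each average. At an unadjusted p under 0.05 there were 0 receptors in any average and 2 early response genes in the PEG average, beside the 11.5% of all genes given above. FER, the wall-sensing receptor kinase FERONIA, had a PEG difference of -0.08 (SE 0.10, limma adjusted p = 0.79), EFR, the receptor for bacterial EF-Tu, 0.01 (SE 0.21) and SD1-29, an S-domain receptor kinase, -0.23 (SE 0.19). STZ, the zinc finger protein ZAT10, differed by 0.32 (SE 0.10, limma adjusted p = 0.172), and the calmodulin-like genes CML37 and CML38 by 0.42 (SE 0.17) and -0.38 (SE 0.20). EFR was low, with a mean of 2.3 log2 units under PEG and 2.3 in the control, and CML37 had means of 3.8 and 3.4. These means lay below the lowest array median, 4.11, and at the level of EFR a change would be hard to see. With NaCl and sorbitol 1 and 3 of the 5 early response genes had an unadjusted p under 0.05, and with ethylene glycol 1, beside 8.81%, 9.67% and 4.49% of all genes. Counts over 5 genes are too few to set against these shares.

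Neither of the genes measured next to AT1G72540 passed the test under PEG. AT1G72550, the next gene in RefSeq order, was at 7.02 log2 units in PEG-treated roots and at 7.10 in control roots, a difference of -0.08 (SE 0.09, limma adjusted p = 0.768). On the other side the nearest gene with a probe set of its own was AT1G72510, with 4 genes between. It was at 6.33 in PEG-treated roots and at 6.50 in control roots, a difference of -0.16 (SE 0.11, limma adjusted p = 0.611). RefSeq also lists a gene, AT1G72545, that overlaps the span of AT1G72540. It has no probe set of its own, and which of the 2 transcripts the probe set reads was not tested.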

How the data were processed

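Per the labels, total RNA of 32 root samples went onto Affymetrix whole-transcript arrays of 1 colour. The authors deposited a table of 28477 probe sets by 32 arrays. Per the submitters' processing notes, without versions, GCRMA (background correction and probe summary), Transcriptome Analysis Console and Affymetrix Expression Console were used. The authors' values, from 0.2 to 12.45, were read as log2 from this range. How arrays were scaled, and the log base, is not given in the sources used here, and another base would change every fold but no test. The number of arrays limits the precision. All 32 columns were used and 0 set aside.

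Genes were named from the array annotation, updated through a RefSeq table that was used for names and order only. Of the probe sets 16746 named 1 gene (16601 matched RefSeq), 758 several and 10973 none. The brightest probe set of each named gene was kept, and every probe set naming several genes or none was counted as a gene of its own. This left 28285.

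Tests used limma 3.58.1 in R 4.3.3 with 16 group means and the title-number series as a block, all arrays, eBayes with a trend, and p adjusted after Benjamini-Hochberg over all genes (0.05), and were tested on simulated data. Arrays of 1 series deviated together in 120 of 120 pairs of groups (correlations of 0.501 to 0.767), and the pairing comes from the title numbers. Genes were named by rule: AT1G72540, its 8 nearest, the list members with the smallest p in the PEG average, the neighbours and the tissue markers. The gene, the lists, the block and the rules were chosen with earlier results of these data known. Alternatives were no block, quantile normalisation, centring, no dim genes, no trend, only the groups compared, equal osmolarity and each array left out. The promoter and protein comparisons that had been planned were not made.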

Additional observations from a re-analysis of the deposited data

How the results depend on the processing

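The difference of PEG from the control stayed between 1.61 and 2.09 log2 units with any 1 array left out and between 1.85 and 1.90 under the other alternatives. With no replicate block the value was 1.85 again, with an SE of 0.48 in place of 0.21, and the NaCl, sorbitol and ethylene glycol averages of 0.63, 0.76 and 0.61 had adjusted p of 1. The sorbitol average passed in 1 setting, the sorbitol and control arrays alone, at 0.76 (adjusted p = 0.0318), a fit with fewer arrays. The NaCl and ethylene glycol averages, the slopes and the contrasts among these 3 solutes passed in no setting. With 1 array left out, the averages ran from 0.39 to 0.87 for NaCl, 0.52 to 1.00 for sorbitol and 0.37 to 0.85 for ethylene glycol, each lowest without the control of the second series and highest without that of the first. The NaCl slope ran from 0.21 to 0.56 (without NaCl 100 mM replicate 1 and 2), the sorbitol slope from 0.091 to 0.36 (without sorbitol 50 mM replicate 2 and 1), and NaCl and sorbitol against ethylene glycol from 0.043 to 0.50 and from 0.0020 to 0.31 (each without ethylene glycol 50 mM replicate 2 and 1). Of the uncalled results, NaCl against sorbitol turned to -0.18 at equal nominal osmolarity and ran from -0.032 (without NaCl 50 mM replicate 2) to 0.28 with 1 array left out, the ethylene glycol slope from -0.058 (without ethylene glycol 50 mM replicate 2) to 0.49, and the single difference at ethylene glycol 50 mM from -0.17 (without its replicate 1) to 0.74. NaCl against ethylene glycol was 0.02 at equal nominal osmolarity. At PEG 125 mM the difference from the control was 2.48 without its replicate 1 and 1.62 without its replicate 2. The number of kinase list members called over the 4 averages was 1, and it was 0 with no replicate block and 0 without either control array. AT5G35580 also lost its call with no mean-variance trend (adjusted p = 0.10). Of the 8 genes most like AT1G72540, 4 remained by Spearman's rho, 2 by the 16 group means and 7 after quantile normalisation. The series difference kept its call in every setting, between -0.87 and -0.75. The intervals of the averages without a control array or the block, and the PEG values without the 150 mM array of the second series, were chosen after seeing the data.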
